A study of Mus musculus with 2 samples.

Results

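The retinoblastoma family and the G1 regulators around it are described here by 10 mouse genes. They are the pocket proteins *Rb1*, *Rbl1* and *Rbl2*, the INK4 inhibitors *Cdkn2a*, *Cdkn2b* and *Cdkn2c*, the CIP/KIP inhibitor *Cdkn1b*, the D cyclins *Ccnd1* and *Ccnd2*, and the kinase *Cdk4*. The genes were chosen by name as the pathway on which the SV40 large T antigen acts, and they are 10 of the 14450 genes that had a tag in either library. GC-1spg cells descend from type B spermatogonia of an animal aged 10 days that were transformed with the plasmid pSV3-neo, which carries the large T gene. GC-2spd (ts) cells descend from spermatocytes of an animal aged 6 weeks and are described by the paper as transformed with large T. The paper does not say what (ts) in the name stands for. Both lines carry large T, so no library without it was compared. They were grown in the same medium, and 1 library was sequenced for each line. Every difference given here is therefore a difference between 2 libraries with no replicate check, and the line, the age of the donor, the way of transformation and the library cannot be told apart.

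In cells that rest in G1, the pocket proteins pRb, p107 (*Rbl1*) and p130 (*Rbl2*) hold E2F transcription factors and keep the genes of S phase entry silent. Cyclin D with CDK4 or CDK6, and then cyclin E with CDK2, phosphorylate the pocket proteins and release E2F. The INK4 proteins block CDK4 and CDK6, while the CIP/KIP proteins bind cyclin and CDK complexes more widely. The SV40 large T antigen binds the pocket proteins through its LXCXE motif and binds p53 through another region.

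DGE tag profiling reads a short tag next to a CATG site, which *Nla*III cuts, on the 3′ side of a polyadenylated transcript. With its CATG the tag is 21 bases long, 17 of them after the site. Since a transcript ideally gives 1 tag whatever its length, levels are tags per 1000000 clean tags (TPM) with no division by length. The copy numbers sum to 5072149 clean tags in GC-1spg against 4726808 in GC-2spd (ts), so that 1 copy is 0.197 and 0.212 TPM, and tags with 1 copy had been removed before deposit. A gene's count is the sum of its sense tags that match no other gene on either strand. Intervals are exact 95% intervals for counting error only.

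None of the 15 germ cell markers examined, *Ddx4*, *Dazl*, *Stra8* and *Sycp3* among them, had an unambiguous sense tag in either library. The labelled cell type was therefore not seen in these 15 markers, and other germ cell genes were not examined as a set. Outside the list, the synaptonemal complex gene *Syce2* had 5 tags in GC-1spg against 821 in GC-2spd (ts) and was called higher. With a sense match preferred over an antisense match, *Sycp3* had 2 tags in GC-1spg against none listed in GC-2spd (ts), and *Gfra1* had 3 and 11. Of 8 fibroblast markers 6 were listed in each library, with a summed level of 2543 TPM in GC-1spg against 1359 TPM in GC-2spd (ts), and *Thy1* and *Lum* were not listed in either. *Col1a1* carried this sum (2063 and 513 TPM). Without it the sum went the other way, with 480 and 846 TPM, but the single markers went in both directions. *Vim* (194 and 613 TPM) and *Col3a1* (9.86 and 25.4 TPM) were called higher in GC-2spd (ts), while *Col1a1* and *Dcn* (140 and 0.423 TPM) were called lower. Of 8 Sertoli cell markers 6 and 3 were listed, at 317 and 94.4 TPM. The Sertoli cell marker *Wt1* had 620 tags in GC-1spg against none listed in GC-2spd (ts) and was called lower. *Clu* (902 and 262 tags, 178 and 55.4 TPM) and *Dhh* (24 tags in GC-1spg, none listed in GC-2spd (ts)) were also called lower. In the same list *Gata4* had 29 and 138 tags and was called higher, and *Sox9* had 29 and 46. Of 5 peritubular myoid markers 3 and 5 were listed, at 13.0 and 122 TPM. *Acta2* carried this sum (9.86 and 117 TPM) and was called higher, while *Des* had 11 and 4 tags. Of 6 Leydig cell markers 2 and 1 were listed, at 0.789 and 1.06 TPM. The part of these differences in the results below was not tested. In bulk RNA a smaller share of expressing cells and less RNA per cell cannot be told apart.

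The levels of the members rest on few tags each, and the tag at the site nearest the 3′ end of the transcript is shown for every member because it decides which transcript end was read. CATG is in capitals. Coordinates are on GRCm38, counts are GC-1spg then GC-2spd (ts) and include tags with 1 mismatch, and the sites are the following.
*Rb1*, 3′ UTR in exon 27, chr14:73195744-73195764, minus strand, 21 and 30 tags: CATGatcatcacacagattag
*Rbl1*, 3′ UTR in exon 22, chr2:157146092-157146112, minus strand, 114 and 244 tags: CATGttgtaataagccaaata
*Rbl2*, 3′ UTR in exon 22, chr8:91123688-91123708, plus strand, 149 and 119 tags: CATGctgctctacagcaccca
*Cdkn2a*, 3′ UTR in exon 3, chr4:89274538-89274558, minus strand, 1703 and 2505 tags: CATGagaaactgagcgaaggc
*Cdkn2b*, 3′ UTR in exon 2, chr4:89306567-89306587, minus strand, 62 and 108 tags: CATGtgtggggattcacctgc
*Cdkn2c*, 3′ UTR in exon 3, chr4:109661018-109661038, minus strand, 138 and 230 tags: CATGtaatagctattcctttt
*Cdkn1b*, 3′ UTR in exon 2, chr6:134925333-134925353, plus strand, 159 and 203 tags: CATGttttgtgcatttgtaaa
*Ccnd1*, 3′ UTR in exon 5, chr7:144929969-144929989, minus strand, 696 and 823 tags: CATGgtccaggaaaaaaaaaa
*Ccnd2*, 3′ UTR in exon 5, chr6:127125576-127125596, minus strand, 138 and 173 tags: CATGtacctcagatctatcag
*Cdk4*, coding sequence in exon 5, chr10:127065220-127065240, plus strand, 433 and 730 tags: CATGtggagcgttggctgtat

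For 9 of the 10 genes this is also the most abundant sense tag, and *Ccnd2* has a more abundant one at a site farther inside. The tags of *Rbl2* and *Ccnd1* also match a neighbouring gene in antisense and so drop out of the unambiguous count. Both genes are therefore given by 2 counts.

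Of the 10 members, 9 had a ratio in the unambiguous count, and in all 9 the level was higher in GC-2spd (ts) than in GC-1spg. The log2 ratios ran from 0.51 for *Cdkn1b* to 1.16 for *Rbl1*, with a median of 0.67. Across the 10714 genes with at least 10 tags over both libraries and listed in both, the median log2 ratio was 0.18, the middle range ran from -0.44 to 0.79, and 58.3% of genes were above 0. All 9 members were above that median, and 8 of the 9 intervals lay wholly above it, *Rb1* being the exception. The share of all genes with such an interval was not computed, so this count has no background beside it. With sense matches preferred, the interval of *Ccnd1* (0.17 to 0.42) held the median and *Rbl2*, at -0.20, lay below it. TMM scaling moves every log2 ratio by -0.17 and the median of all genes to 0.01. The 9 members then stayed above 0, with a median of 0.49.

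**Figure D1:**
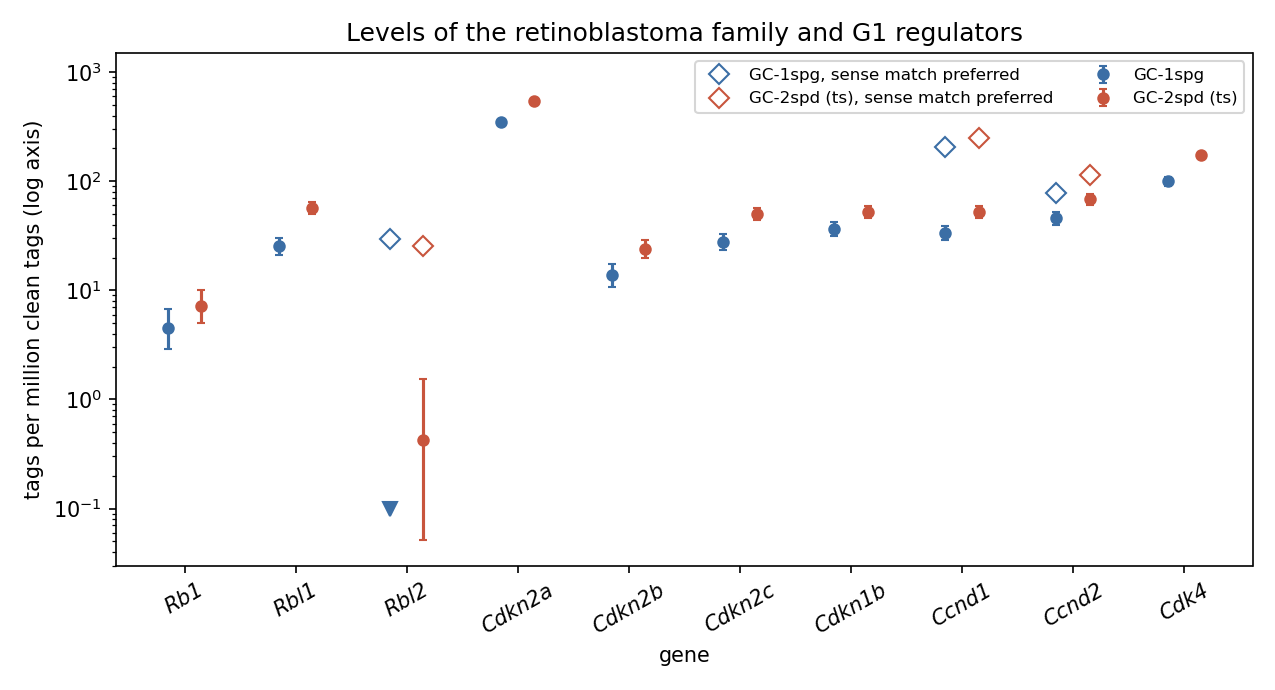
Level of each member in TPM (log axis) in GC-1spg (blue) and GC-2spd (ts) (red), with 1 library per line. Circles are unambiguous sense tags with exact 95% Poisson intervals, diamonds are the count in which a sense match is preferred (drawn for *Rbl2*, *Ccnd1* and *Ccnd2*), and the triangle marks *Rbl2* with no tag listed, from *Cdkn2a* at 347 and 545 TPM down to *Rb1* at 4.54 and 7.19 TPM.

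Genes were called where the two-sided Audic-Claverie test gave a Benjamini-Hochberg false discovery rate of at most 0.001 over all 14450 genes and the ratio was at least 2-fold. 1 of the 10 members, *Rbl1*, was called higher in GC-2spd (ts) and 0 were called lower. Of all genes, 11.7% (1684) were called higher and 7.84% (1133) lower, so 1 of 10 is close to the background. A 2-fold difference alone, among genes with at least 10 tags, was met by 19.9% (2248 of 11298) in the higher and 14.9% (1688) in the lower direction, and by *Rbl1* only of the members. The higher calls made up 59.8% of all calls, 53.7% when the counts were scaled to the unambiguous sense tags, and 47.2% with TMM scaling.

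Of the pocket proteins, *Rb1* encodes pRb itself. Its 23 tags in GC-1spg against 34 in GC-2spd (ts) gave 4.54 TPM (interval 2.88 to 6.80) and 7.19 TPM (4.98 to 10.1). The log2 ratio was 0.67, and its interval of -0.14 to 1.50 holds 0, so a difference in *Rb1* was not detectable at this depth. The same intervals would also hold a 2-fold difference.

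*Rbl1*, which encodes p107, had 129 tags in GC-1spg against 269 in GC-2spd (ts), or 25.4 TPM (21.2 to 30.2) and 56.9 TPM (50.3 to 64.1). The intervals do not overlap, the log2 ratio was 1.16 (0.85 to 1.48), a 2.24-fold difference, and the value was 0.98 above the median of all genes. With TMM scaling the log2 ratio was 0.99, which is under the 2-fold threshold, and the gene was then not called. The site nearest the 3′ end held 88.4% of its tags in GC-1spg (81.5 to 93.3) and 90.7% in GC-2spd (ts) (86.6 to 93.9). The remainder included 9 and 13 tags of a retained-intron transcript.

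*Rbl2*, which encodes p130, the pocket protein typical of resting cells, had no unambiguous tag listed in GC-1spg against 2 in GC-2spd (ts), and no ratio was formed. Its main tag lies 157 bases from the 3′ end and is also an antisense tag of *Aktip*, the gene on the other strand. Counted as *Rbl2*, the sense tags numbered 149 and 121, or 29.4 TPM (24.9 to 34.5) in GC-1spg and 25.6 TPM (21.2 to 30.6) in GC-2spd (ts). The log2 ratio was -0.20 (-0.56 to 0.16), so in this count the 2 levels overlapped. *Rbl2* was then the only member below 0, and its upper bound lay below the median of all genes.

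With the sense match preferred, the intervals of *Rbl1* and *Rbl2* overlapped in GC-1spg. In GC-2spd (ts) the *Rbl1* level was then higher than the *Rbl2* level, with no overlap. In both libraries *Rb1* was lower than either of them when the sense match was preferred. These tags measure RNA only, and how much of each pocket protein is phosphorylated or bound by large T was not measured here.

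Of the inhibitors, *Cdkn2a* had the highest level of all members in both libraries. This gene encodes p16Ink4a, an inhibitor of CDK4 and CDK6, and p19Arf, which binds MDM2, from different first exons. It had 1761 tags in GC-1spg against 2574 in GC-2spd (ts), or 347 TPM (331 to 364) and 545 TPM (524 to 566). The log2 ratio was 0.65 (0.56 to 0.74), a 1.57-fold difference under the 2-fold threshold. In both libraries the next member was well below it.

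The main *Cdkn2a* tag held 96.7% of the gene's tags in GC-1spg (95.8 to 97.5) and 97.3% in GC-2spd (ts) (96.6 to 97.9). It lies in the last exon, which is common to both products, but the annotation holds the whole tag in 1 of the 2 transcripts only, Cdkn2a-201. Whether Arf transcripts also reach this tag was not tested, so it is not used to tell the products apart. With only the longest transcript of each gene, *Cdkn2a* kept 119 tags over both libraries, at a log2 ratio of 0.42. Tags in the first exon do tell the products apart. The tag CATGttgttgaggctagagag at chr4:89294372-89294392 (minus strand) lies in the coding part of the upstream first exon, from which Arf is made, and had 14 and 28 tags. Its log2 ratio was 1.10 (0.13 to 2.14), and its share of the gene's tags was 0.795% (0.435 to 1.33) and 1.09% (0.724 to 1.57), which overlap. A further tag of this exon, CATGggtcgcaggttcttggt, had 3 tags in GC-1spg and was not listed in GC-2spd (ts). A tag of both transcripts, CATGtggctttaaaaaataca, had 36 and 38 tags. In the downstream first exon, from which p16Ink4a is made, CATGgagtccgctgcagacag had 5 tags in GC-1spg and was not listed in GC-2spd (ts), and CATGacgtgcgggcactgctg had 3 tags in GC-2spd (ts) and was not listed in GC-1spg. These first-exon counts are too few to compare the products.

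*Cdkn2b*, the neighbouring gene on chromosome 4, encodes p15Ink4b, an inhibitor known to be induced by TGF-beta. It had 70 and 114 tags, or 13.8 TPM (10.8 to 17.4) and 24.1 TPM (19.9 to 29.0). The intervals do not overlap, and the log2 ratio was 0.81 (0.36 to 1.26), or 1.75-fold. The 5′ UTR tag CATGttgggcggcagcagtga had 8 tags in GC-1spg against 4 in GC-2spd (ts), 11.4% (5.07 to 21.3) and 3.51% (0.964 to 8.74) of the gene's tags, which overlap.

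*Cdkn2c*, which encodes p18Ink4c, had 140 and 239 tags, or 27.6 TPM (23.2 to 32.6) and 50.6 TPM (44.4 to 57.4). Its log2 ratio of 0.87 (0.57 to 1.18) was the largest after *Rbl1*, and at 1.83-fold it was under the threshold. A coding tag with 9 copies in GC-2spd (ts) was not listed in GC-1spg. The last INK4 gene, *Cdkn2d* (p19Ink4d), had 68 and 135 tags, or 13.4 and 28.6 TPM, and was called higher at a log2 ratio of 1.09 (0.66 to 1.53), with 0.92 and no call under TMM scaling. All 4 INK4 genes thus had a higher level in GC-2spd (ts), under both scalings, and 1 of the 4 was called. Before TMM scaling, 58.3% of the genes with at least 10 tags and listed in both libraries were above 0. Of all genes, 11.7% were called higher.

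*Cdkn1b* encodes p27Kip1, an inhibitor of cyclin E and CDK2 whose protein is removed through SKP2. It had 187 tags in GC-1spg against 249 in GC-2spd (ts), or 36.9 TPM (31.8 to 42.6) and 52.7 TPM (46.3 to 59.6). The log2 ratio of 0.51 (0.24 to 0.80) was the smallest of the 9. The tag nearest the 3′ end held 85.0% and 81.5% of its tags, and the next site, CATGaagcttattctcacttg, held 10.2% and 9.64%. Antisense tags went the other way, with 191 in GC-1spg against 127 in GC-2spd (ts), and their log2 ratio was -0.49 (-0.82 to -0.16). With both strands summed, *Cdkn1b* had a log2 ratio of 0.09, which is below the median of all genes.

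The other CIP/KIP genes were low. *Cdkn1a* (p21), a target of p53, had 18 tags in GC-1spg against 11 in GC-2spd (ts), or 3.55 and 2.33 TPM, with a log2 ratio of -0.61 (-1.84 to 0.55) whose interval holds 0. *Cdkn1c* (p57) had 9 and 28 tags, or 1.77 and 5.92 TPM. Its log2 ratio of 1.74 (0.62 to 3.01) lay above 0, but the gene was not called at these counts.

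**Figure D2:**
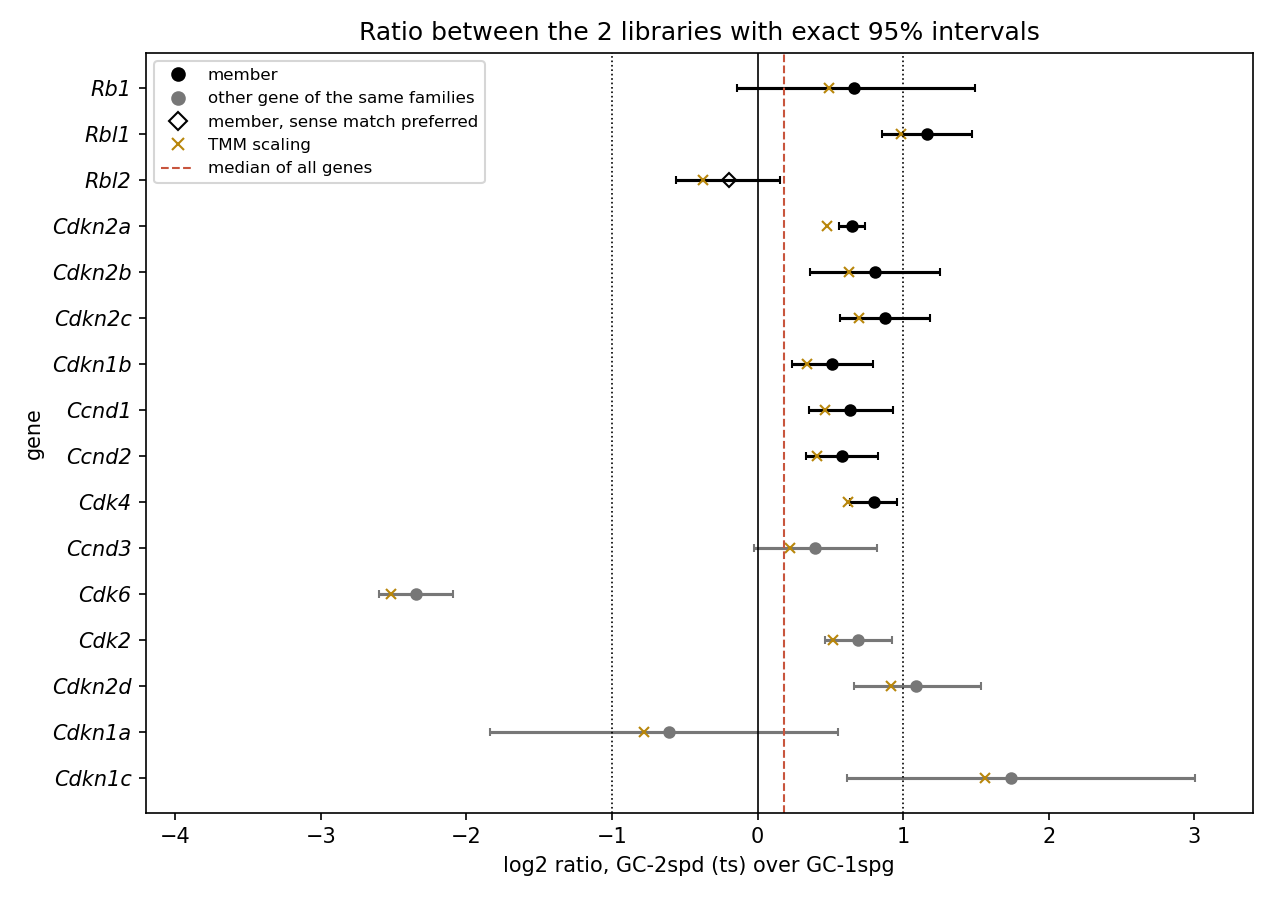
Log2 ratio of GC-2spd (ts) over GC-1spg for the members (black) and other genes of their families (grey), with exact 95% intervals, crosses for TMM scaling, dotted lines at 2-fold and a dashed line at the median of all genes (0.18). *Rbl1* and *Cdkn2d* pass the dotted line and are called (though not with TMM scaling, where both fall under it), *Cdkn1c* passes it without a call, *Cdk6* alone is called lower at -2.34, and *Rbl2* is drawn as an open diamond from the count with a sense match preferred.

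Of the D cyclins, which bind and activate CDK4 and CDK6 on mitogenic signals, *Ccnd1* had 171 unambiguous tags in GC-1spg against 248 in GC-2spd (ts), or 33.7 TPM (28.9 to 39.2) and 52.5 TPM (46.1 to 59.4). The log2 ratio was 0.64 (0.35 to 0.93). This count leaves out its most abundant tag, which lies 59 bases from the 3′ end and is also an antisense tag of LTO1. For the same reason it leaves out the tag 816 bases from the 3′ end, which had 168 and 114 tags. With sense matches preferred *Ccnd1* had 1037 and 1185 tags, or 204 TPM (192 to 217) and 251 TPM (237 to 265). It was then the second highest member in both libraries, and the log2 ratio was 0.29 (0.17 to 0.42), which holds the median of all genes.

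The sites of *Ccnd1* did not move together. The site nearest the 3′ end, 59 bases from it, held 67.1% of the sense tags in GC-1spg (64.2 to 70.0) and 69.5% in GC-2spd (ts) (66.7 to 72.1), which overlap. The site CATGttcaagttttaatttcc at chr7:144930726-144930746 (minus strand), 816 bases from the 3′ end, had 168 and 114 tags. Its share was 16.2% (14.0 to 18.6) in GC-1spg against 9.62% (8.0 to 11.4) in GC-2spd (ts), with no overlap, and its own log2 ratio was -0.46 (-0.81 to -0.11). The site CATGttgttaccagaagagga at chr7:144932494-144932514 (minus strand) lies only 96 bases after the stop codon and 2584 bases from the 3′ end of the transcript Ccnd1-201. It had 133 and 219 tags, with a share of 12.8% (10.8 to 15.0) against 18.5% (16.3 to 20.8) and a log2 ratio of 0.82 (0.50 to 1.14). The 2 inner sites thus went in opposite directions. The unambiguous sum of *Ccnd1* rests mostly on the second of them and leaves out the first.

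*Ccnd2* had 232 unambiguous tags in GC-1spg against 323 in GC-2spd (ts), or 45.7 TPM (40.0 to 52.0) and 68.3 TPM (61.1 to 76.2), and a log2 ratio of 0.58 (0.33 to 0.83). With sense matches preferred it had 392 and 534 tags, or 77.3 and 113 TPM, and a log2 ratio of 0.55 (0.36 to 0.74). The added tag, at chr6:127125950-127125970 on the minus strand, lies 809 bases from the 3′ end and is an antisense tag of the gene model Gm43126. It held 40.8% of the sense tags in GC-1spg (35.9 to 45.9) and 39.5% in GC-2spd (ts) (35.3 to 43.8). A coding tag in exon 4, at chr6:127139218-127139238, held 10.7% and 13.5%. The shares of all 3 main sites overlapped between the libraries.

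At these sites of *Ccnd2* the libraries listed different bases, shown because the count depends on allowing a mismatch. The base that differs is in capitals, the first line of each pair is the reference tag, and positions are counted from 1 at the 5′ end of the tag.
*Ccnd2*, 3′ UTR, not listed in GC-1spg against 211 copies in GC-2spd (ts): catgcgctactccgAttttaa
*Ccnd2*, 3′ UTR, 160 copies in GC-1spg against not listed in GC-2spd (ts), A15C: catgcgctactccgCttttaa
*Ccnd2*, exon 4, not listed in GC-1spg against 72 copies in GC-2spd (ts): catgtacccgccGtcgatgat
*Ccnd2*, exon 4, 42 copies in GC-1spg against not listed in GC-2spd (ts), G13A: catgtacccgccAtcgatgat

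At both sites each library listed only 1 of the 2 bases. With exact matches only, the *Ccnd2* log2 ratio was 0.87 in place of 0.58. *Ccnd2* was the only member with such a site at 20 copies or more, and *Id2* (C16G) and *Rrm2* (G8A) were the others among the 95 pathway genes examined.

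*Ccnd3*, the remaining D cyclin, had 88 and 108 unambiguous tags, or 17.4 and 22.9 TPM, with a log2 ratio of 0.40 (-0.02 to 0.82). Its main tag, also an antisense tag of *Bysl*, raised this to 607 and 765 tags and a log2 ratio of 0.44 (0.28 to 0.59). None of the 3 D cyclins was called in either count.

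**Figure D3:**
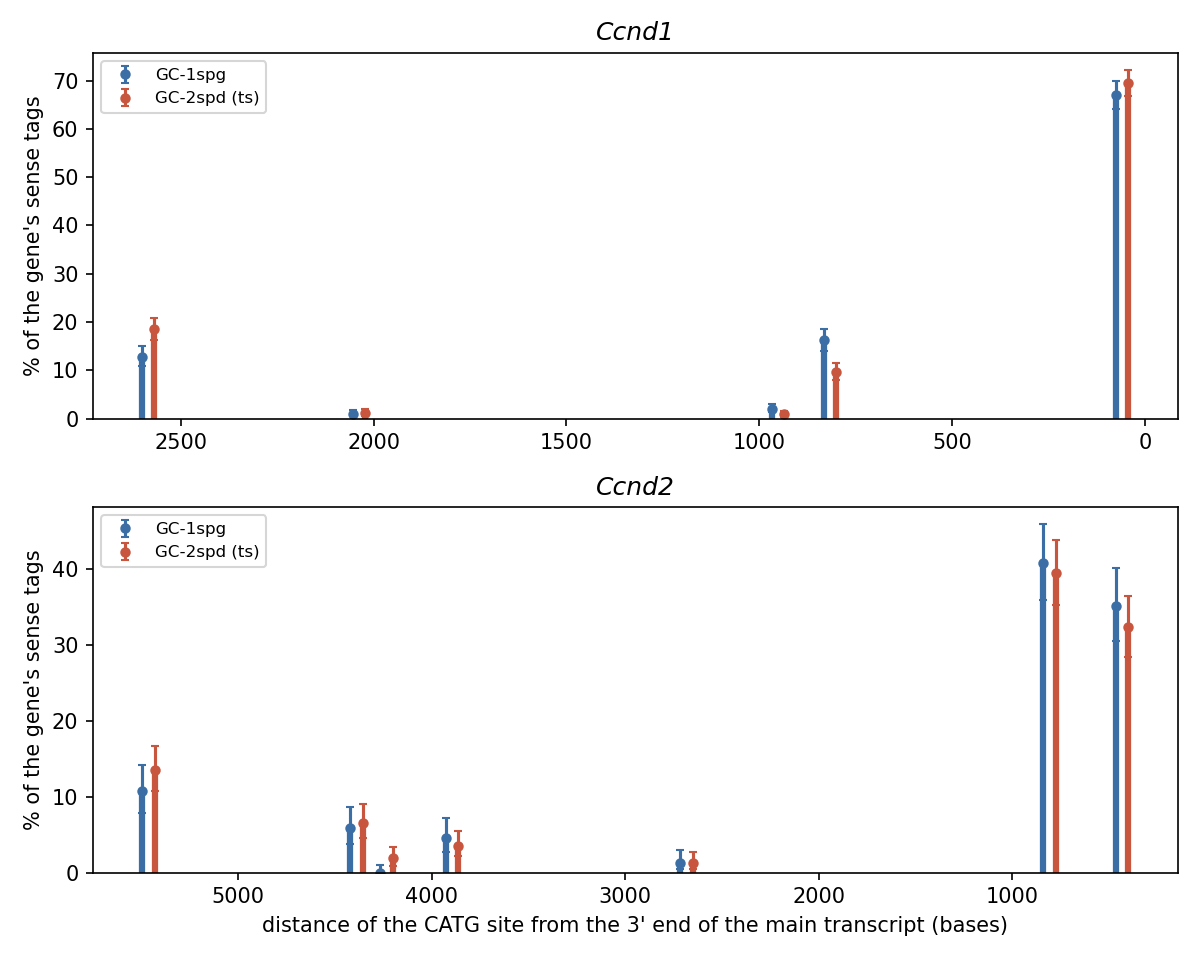
Share of the sense tags of *Ccnd1* and *Ccnd2* at each CATG site with at least 10 tags, in percent, against the distance of the site from the 3′ end of the main transcript in bases (3′ end at the right), for GC-1spg (blue) and GC-2spd (ts) (red) with exact 95% intervals. For *Ccnd1* the site at 816 bases has the larger share in GC-1spg (16.2% against 9.62%) against the site at 2584 bases the larger share in GC-2spd (ts) (18.5% against 12.8%), whereas the main sites of *Ccnd2* overlap.

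*Cdk4*, the kinase that cyclin D activates, had 507 tags in GC-1spg against 821 in GC-2spd (ts), or 100 TPM (91.5 to 109) and 174 TPM (162 to 186). The log2 ratio of 0.80 (0.64 to 0.96), or 1.74-fold, had an interval that ended just under the 2-fold threshold. The coding tag in exon 5 held 85.4% of these tags in GC-1spg (82.0 to 88.4) and 88.9% in GC-2spd (ts) (86.6 to 91.0). A tag of the retained-intron transcript Cdk4-207, CATGtatgtgagtacactcac, had 71 and 78 tags, 14.0% (11.1 to 17.3) against 9.50% (7.58 to 11.7). A further coding tag, CATGcaaactgcattgttcac, is identical in the pseudogene Gm44952 and was left out. It had 103 and 111 tags, and with pseudogenes left out of the reference *Cdk4* had 610 and 932 tags, and its log2 ratio was 0.71 (0.56 to 0.86).

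*Cdk6*, the other partner of the D cyclins, went the other way. It had 833 tags in GC-1spg against 153 in GC-2spd (ts), or 164 TPM (153 to 176) and 32.4 TPM (27.4 to 37.9). It was called lower in GC-2spd (ts), 5.07-fold, at a log2 ratio of -2.34 (-2.60 to -2.09), or -2.52 with TMM scaling. The site nearest its 3′ end, CATGggacttccctagagaga, had 409 and 52 tags, and the site CATGtgataaagtgaaaataa, farther inside the 3′ UTR, had 209 and 58. Of the tags of *Cdk4* and *Cdk6* together, *Cdk6* held 62.2% in GC-1spg (59.5 to 64.8) and 15.7% in GC-2spd (ts) (13.5 to 18.1). Summed over all sites, the 2 kinases thus stood in opposite order, with *Cdk6* above *Cdk4* in GC-1spg against *Cdk4* above *Cdk6* in GC-2spd (ts). At the tag nearest the 3′ end, *Cdk6* had 409 tags in GC-1spg against 433 for *Cdk4*, and 52 against 730 in GC-2spd (ts). The order in GC-1spg therefore depends on counting the inner sites of *Cdk6*. *Cdk2*, the partner of cyclins E and A, had 259 and 390 tags. Its log2 ratio of 0.69 (0.46 to 0.92) was close to that of *Cdk4*, and it was not called.

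In the order of levels, *Cdkn2a*, *Cdk4* and *Ccnd2* held the top 3 places, in this order, in both libraries in the unambiguous count, and *Cdkn2b*, *Rb1* and *Rbl2* came last. Between them lay *Cdkn1b*, *Ccnd1*, *Cdkn2c* and *Rbl1*, whose neighbours overlapped in both libraries. *Ccnd2* overlapped the gene next below it in each library. *Rbl1* was the lowest of these 4 in GC-1spg, at 25.4 TPM, and the highest in GC-2spd (ts), at 56.9 TPM. With sense matches preferred *Ccnd1* moved to second place and *Rbl2* joined the middle group in GC-1spg.

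The rest of the pathway was taken from lists of E2F factors, their partners and targets, and regulators of the members and of p53. Outside the 10 members these lists hold 85 genes, all with a tag, of which 9 were called higher (10.6%, against 11.7% of all genes) and 4 lower (4.71%, against 7.84%). The median log2 ratio over the 83 with at least 10 tags and listed in both libraries was 0.34, against 0.18 for all genes.

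Among the factors that the pocket proteins bind, 1 of 10 E2F and DP genes was called. *Tfdp1*, whose product DP1 pairs with E2F proteins, had 183 tags in GC-1spg against 364 in GC-2spd (ts). Its log2 ratio was 1.09 (0.83 to 1.36), and 0.92 with no call under TMM scaling. The list had a median of 0.42. Of 9 subunits and partners of the MuvB and DREAM complexes, in which p107 or p130 sits with E2F, *Lin54*, a DNA-binding subunit, was called higher with 79 and 187 tags and a log2 ratio of 1.34 (0.96 to 1.74). The subunit *Lin37* had no tag listed in GC-1spg against 2 in GC-2spd (ts). The median of that list was 0.69.

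Of 8 chromatin partners of pRb, *Rbbp7*, a histone-binding protein, was called higher with 474 and 1673 tags and a log2 ratio of 1.92 (1.77 to 2.07), against a list median of 0.25. Of 4 genes for E and A cyclins and the phosphatase CDC25A, *Ccna2*, the cyclin of S phase and G2, was called higher with 107 and 229 tags and a log2 ratio of 1.20 (0.86 to 1.54). With sense matches preferred, or with the longest transcript only, its log2 ratio was 0.78 with no call. The list median was 1.06. Of 20 E2F target genes of S phase entry, *Pola1*, a DNA polymerase subunit, was the only one called, with 56 and 107 tags and a log2 ratio of 1.04 (0.56 to 1.53), or 0.86 and no call under TMM scaling. The target genes ranged from -1.07 to 1.04 with a median of 0.35. The lower end was *Mcm7*, with only 18 and 8 tags and an interval (-2.48 to 0.21) that holds 0. Of all genes, 11.7% were called higher and 7.84% lower.

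The 6 genes of p27 and cyclin E turnover had the lowest list median, -0.72, and 0 of them were called. The median of the 7 other host proteins that large T binds was -0.26 over the 6 with enough tags, again with 0 called. By family, the lists that hold the members had 1 of 3 pocket proteins called higher, 0 of 3 D cyclins called, 1 of 3 G1 kinases called lower, 1 of 4 INK4 genes called higher and 0 of 3 CIP/KIP genes called. The shares of all genes were 11.7% called higher and 7.84% called lower, and lists this short were not tested against them.

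On the p53 side (3 genes, with 1 called higher and 1 lower), to which p19Arf connects the pathway through MDM2, *Trp53* had 20 tags of its own in GC-1spg against 397 in GC-2spd (ts), or 3.94 and 84.0 TPM, and was called higher at a log2 ratio of 4.41 (3.77 to 5.14). Tags that *Trp53* has in common with the pseudogene Trp53-ps were left out of this count. They numbered 698 in GC-1spg against 26277 in GC-2spd (ts), which is 138 and 5559 TPM and gives a log2 ratio of 5.34 (5.23 to 5.45). Whether the *Trp53* tags came from the cell's own gene was not tested. *Mdm2*, whose product degrades p53, had 268 and 281 tags. Its log2 ratio of 0.17 (-0.08 to 0.42) turned to -0.0036 with TMM scaling. *Mdm4*, its relative, was called lower with 589 and 256 tags and a log2 ratio of -1.10 (-1.32 to -0.89).

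Of 16 p53 target genes 2 were called higher and 2 lower, against 11.7% and 7.84% of all genes. *Zmat3* (61 and 162 tags, log2 ratio 1.51) and *Plk2* (88 and 210 tags, 1.36) were called higher. *Btg2* (87 and 32 tags, -1.34) and *Pmaip1* (55 and 16 tags, -1.68), a pro-apoptotic gene, were called lower. The call of *Btg2* was lost when only the 3′-most site was counted, and that of *Pmaip1* with edgeR's exact test at an assumed coefficient of variation of 0.1. The median was -0.01, and the target genes went in both directions while the *Trp53* tag count was higher.

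**Figure D4:**
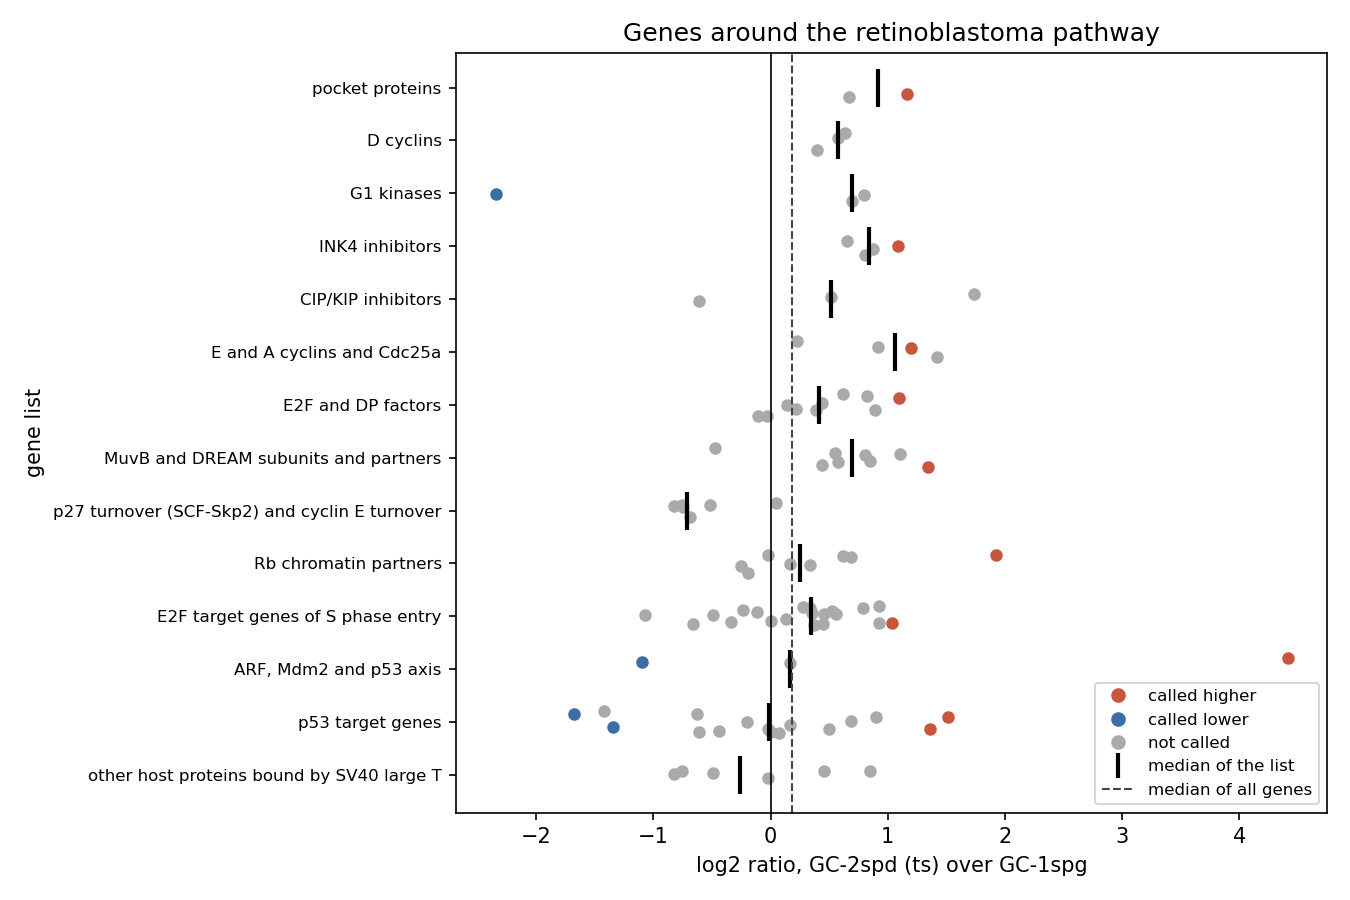
Log2 ratio of GC-2spd (ts) over GC-1spg for each gene of the 14 lists that has at least 10 tags and is listed in both libraries, red where called higher, blue where called lower and grey where not called, with a bar at the median of each list and a dashed line at the median of all genes (0.18). The turnover list stands lowest at -0.72 with 0 calls, *Trp53* is farthest to the right at 4.41, and *Cdk6* is farthest to the left at -2.34.

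In the promoter sequences of RefSeq (GRCm38.p6, 250 bases before to 50 bases after a gene's start), 7 of the 10 members had an entry. The E2F-type motifs TTTCCCGC and TTTGGCGC were searched on both strands. They were in 514 of 32851 promoters (1.56%) and in 1 of these 7 members, *Cdkn2a*, in 1 of its entries. The stretch is at chr4:89294700-89294729 on the minus strand, with the motif in capitals: ctctgggaagcTTTCCCGCgcgactgggga. *Cdk2* also had a match. Such a match is a description of letters in these windows.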

How the data were processed

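Total RNA of GC-1spg and GC-2spd (ts) was profiled by DGE, with 1 library per line. The authors filtered out tags of adaptors, of poor quality or of 1 copy only. For each tag left, a raw count and a TPM value, the count divided by all clean tags and times 1000000, were deposited. No source used here names their aligner. The 21-base tags were matched to the transcripts of GENCODE release M21 (GRCm38) on both strands, with at most 1 mismatch after CATG and exact matches first. Sense tags whose best matches belonged to 1 gene were summed and divided by all clean tags. Unambiguous sense tags made up 54.7% of the library of GC-1spg and 57.9% of that of GC-2spd (ts).

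Calls came from a two-sided Audic-Claverie test, Benjamini-Hochberg adjusted over 14450 genes (FDR at most 0.001, at least 2-fold, with genes at 0 set to 0.01 TPM). Without replicates the quasi-likelihood test of edgeR could not be fitted. Intervals are exact (conditional binomial for ratios, Poisson for levels, Clopper-Pearson for shares) and cover counting error only, with 1 library per line. The tags carry no molecular identifiers, so PCR copies of 1 molecule count as separate tags, and the intervals make no allowance for this. The calling was tested on simulated counts with counting error only, so this could not show how it behaves under variation between libraries. The members, the 14 pathway lists and the 5 marker lists were chosen with earlier results of these data known. Named were the members and their families with *Trp53* and *Mdm2*, other listed genes that were called or had no tag in 1 library, and member tags with at least 10% of the sense tags of a gene or matching another gene. Genes of the marker lists, *Syce2*, *Mcm7* and smaller tags were named after their values were seen. The alternatives were other matching, strand, scaling, filter and call rules, with TMM and an exact test of edgeR that assumes a biological coefficient of variation (BCV) among them. The tools were edgeR 4.0.16 in R 4.3.3, and scipy 1.17.1, numpy 2.4.6, matplotlib 3.10.9 and pandas 2.3.3 in Python 3.11.15.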

Additional observations from a re-analysis of the deposited data

Results flagged for a closer look

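Signal outside the unambiguous sense counts was found at every member. Antisense tags, which match the opposite strand of the gene and no other gene, numbered over both libraries 318 for *Cdkn1b*, 247 for *Ccnd2*, 143 for *Ccnd1*, 125 for *Cdkn2a*, 78 for *Rbl1*, 69 for *Cdk4*, 57 for *Cdkn2c*, 17 for *Cdkn2b*, 14 for *Rb1* and 7 for *Rbl2*. Most antisense tags of *Cdkn1b* came from 1 site, with 186 in GC-1spg against 119 in GC-2spd (ts). The antisense tags of *Ccnd1*, 87 and 56, also had a ratio below 0, at a log2 ratio of -0.53 (-1.05 to -0.03), while those of *Ccnd2* (109 and 138) and *Rbl1* (28 and 50) had log2 ratios of 0.44 and 0.94.

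Sense tags left out because they also match another gene in antisense numbered 1803 for *Ccnd1*, 371 for *Ccnd2* and 268 for *Rbl2* over both libraries. Sense tags of *Cdk4* that also match another gene, nearly all of them a pseudogene, numbered 216.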

How the results depend on the processing

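No paired analysis was possible because each line has 1 library and the labels carry no replicate numbers. Of 15 alternatives, the members called higher fell from 1 to 0 with TMM scaling and with edgeR's exact test at an assumed BCV of 0.2 or 0.4, where the *Rbl1* log2 ratio was 0.99 under TMM scaling. Other pathway genes called higher fell from 9 to 2 and 1 at a BCV of 0.2 and 0.4, and those called lower from 4 to 1 and 0. The calls that remained at a BCV of 0.2 were *Rbbp7*, *Trp53* and *Cdk6*, and only that of *Trp53* remained at 0.4. At a BCV of 0.1 the calls of *Cdkn2d*, *Pola1* and *Pmaip1* were lost, with the site nearest the 3′ end alone those of *Cdkn2d*, *Tfdp1* and *Btg2*, with TMM scaling those of *Cdkn2d*, *Tfdp1* and *Pola1*, with sense matches preferred or the longest transcript that of *Ccna2*, and with both strands summed or scaling to unambiguous sense tags that of *Pola1*. Over all genes, 1684 higher and 1133 lower calls became 511 and 489 at a BCV of 0.2 and 108 and 136 at 0.4. Of 89 log2 ratios of members under the alternatives, all 89 were above 0 and 88 kept their side of the threshold. These are not 89 separate checks, because all of them come from the same libraries and many could not change sign. TMM scaling and scaling to unambiguous sense tags each move every ratio by a constant, too small to bring any member below 0. The filter on a minimum number of tags left the ratios unchanged, and 0.5 added tags hardly moved them. *Rbl2*, which had no ratio in the unambiguous count and -0.20 with sense matches preferred, is not among the 89, and *Ccnd1* gave none with the site nearest the 3′ end alone. The ranges were widest for *Cdkn1b* (0.09 with both strands to 0.51), *Ccnd2* (0.41 to 0.87) and *Ccnd1* (0.29 to 0.64). Counting error leaves *Rb1* with an interval that holds both 0 and 2-fold.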

Other observations

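Library-specific bases were not limited to *Ccnd2*. Among reference tags with at least 20 copies in GC-2spd (ts) and none listed in GC-1spg, 93 of 457 (20.4%) had a tag with 1 changed base in GC-1spg that was not listed in GC-2spd (ts), in 92 genes on 17 chromosomes. In the reverse direction this held for 0 of 279 tags. For *Id2* the reference tag had 796 copies in GC-2spd (ts) and the changed tag (C16G) 768 in GC-1spg, and for *Rrm2* (G8A) these were 270 and 300. A single tag of *Trp53* that is also in Trp53-ps had 691 copies in GC-1spg against 25754 in GC-2spd (ts). These values carry no explanation here.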
